A study of Homo sapiens with 8 samples.

Results

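TMEM2, VCAN, AGRN and HSPG2 are 4 of 3666 genes in the authors' list of differences between cells of low and of high permeability to lactic acid. The genes were picked by symbol from that list, and their difference between the fractions, with TMEM2 on one side and the 3 proteoglycan genes on the other, was known when they were picked. The difference is therefore described below without a test. The cells were MIA PaCa-2, an established line from a human pancreatic ductal adenocarcinoma, labelled wild type in genotype and with no treatment. Before sorting, cells of both fractions were exposed for a short time to lactate medium that was then washed out. Cells of the low extreme (PHLac-low) and of the high extreme (PHLac-high) were collected by fluorescence-activated sorting in 4 repeats, which gave 8 poly(A)-selected RNA libraries paired by repeat. All results come from 1 cell line, and the labels do not say whether the repeats were separate cultures, so the errors cover the spread between these libraries only. In such bulk libraries a smaller number of cells that express a gene and less RNA per cell cannot be told apart.

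Hyaluronan is a long, unsulphated sugar polymer that hyaluronan synthases extrude from the plasma membrane into the coat around cells, and that hyaluronidases cut. TMEM2, now named CEMIP2, is a membrane protein reported to act as a hyaluronidase at the cell surface. Proteoglycans are core proteins that carry sulphated glycosaminoglycan chains. Versican (VCAN) is a large chondroitin sulphate proteoglycan whose amino-terminal domain binds hyaluronan. Agrin (AGRN) and perlecan (HSPG2) are heparan sulphate proteoglycans of basement membranes. The stroma of pancreatic tumours is known to be rich in hyaluronan and versican.

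In GENCODE 29 (GRCh38), TMEM2 lies on the minus strand of chromosome 9 from 71683366 to 71816690. VCAN lies on the plus strand of chromosome 5 from 83471465 to 83582303. AGRN lies on the plus strand of chromosome 1 from 1020123 to 1056118, and HSPG2 on its minus strand from 21822245 to 21937297. The longest coding transcripts have 6523, 12625, 7394 and 14327 bases for TMEM2, VCAN, AGRN and HSPG2. In the table VCAN, AGRN and HSPG2 carry the Entrez identifiers 1462, 375790 and 3339, and TMEM2 carries none and was matched by its RefSeq synonym. Exons of HSPG2 share 2121 bases with LDLRAD2 on the opposite strand, and exons of VCAN share 453 bases with VCAN-AS1 on the opposite strand. AGRN exons share 402 bases with AL645608.5, a noncoding RNA on the same strand. Whether reads were counted by strand is not given in the sources used here.

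Promoters are shown for a gene that was higher in PHLac-high and for 2 of the 3 that were lower. They set base composition beside that of the transcripts below. AGRN is left out because the promoter set used holds no entry for it. Each sequence is the 250 bases before the annotated start, 5′ to 3′ on the gene's strand, from RefSeq (GRCh38.p14). The windows are chr9:71768514-71768763 on the minus strand, chr5:83471494-83471743 on the plus strand and chr1:21937311-21937560 on the minus strand. Capitals mark the GC box GGGCGG on either strand, which is the binding element of SP1-like factors.
TMEM2: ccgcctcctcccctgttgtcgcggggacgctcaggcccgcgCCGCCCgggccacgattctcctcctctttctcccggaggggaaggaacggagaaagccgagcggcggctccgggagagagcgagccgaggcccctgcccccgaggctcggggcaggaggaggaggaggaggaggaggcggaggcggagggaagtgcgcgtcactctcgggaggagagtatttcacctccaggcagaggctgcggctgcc
VCAN: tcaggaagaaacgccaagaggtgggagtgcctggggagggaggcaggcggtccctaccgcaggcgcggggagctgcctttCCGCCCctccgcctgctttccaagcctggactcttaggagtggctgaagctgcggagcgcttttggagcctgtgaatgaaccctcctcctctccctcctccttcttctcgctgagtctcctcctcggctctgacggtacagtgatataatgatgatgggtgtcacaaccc
HSPG2: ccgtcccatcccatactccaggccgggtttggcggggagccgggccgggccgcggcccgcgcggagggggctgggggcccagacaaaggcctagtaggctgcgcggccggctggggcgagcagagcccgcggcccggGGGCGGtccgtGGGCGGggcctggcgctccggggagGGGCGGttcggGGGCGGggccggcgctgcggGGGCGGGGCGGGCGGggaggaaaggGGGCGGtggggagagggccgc
The HSPG2 window holds 8 matches to GGGCGG, some of them overlapping, while the TMEM2 and VCAN windows hold 1 each. Of 35116 RefSeq promoters, 42.6% have at least 1 match in the same 250 bases. GC content is 82.8% in the HSPG2 window, above that of 98.7% of promoters, against 71.6% for TMEM2 and 60.8% for VCAN, with a median of 58% over all promoters. The other letters searched on both strands are not in these 3 windows. Over all promoters, the CCAAT box was found in 32%, the TATA box spelled TATAAA in 10.7% and the AP-1 element spelled TGANTCA in 6.57%. The STAT element spelled TTCNNNGAA was found in 6.57% and the E-box spelled CACGTG in 6.34%. These windows describe 1 start each, and GENCODE gives 6 coding starts for TMEM2, 6 for VCAN and 5 for HSPG2. By the GENCODE coordinates above, the TMEM2 and VCAN windows lie inside the gene, and the HSPG2 window lies before it.

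Values are normalised counts, that is reads per gene divided by a size factor for the library. Size factors ranged from 0.755 to 2.09, and between 8979276 and 23176205 reads per library fell in the listed genes. Both libraries of repeat 4 stood apart from the others of their fraction, in the same direction. On principal component 1 of the listed genes (54.7% of the variance) the PHLac-low library of repeat 4 scored -6.88, against -25.9 to -24.5 for the other PHLac-low libraries. The PHLac-high library of repeat 4 scored 33.4, against 14.1 to 18.5 for the other PHLac-high libraries. Results are therefore also given without repeat 4.

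From repeat 1 to repeat 4, the normalised counts of TMEM2 were 543, 507, 575 and 665 for PHLac-low cells and 2935, 2161, 2769 and 1504 for PHLac-high cells. Every PHLac-high library was above every PHLac-low library. Over all listed genes, 36.7% had groups that did not overlap, and 23.3% did so in the upward direction. The smallest difference was in repeat 4, where the PHLac-low value was the highest of its group and the PHLac-high value the lowest of its group. Group means were 572 ± 67.4 and 2342 ± 650.2 (SD, n = 4). The log2 change of PHLac-high over PHLac-low was 1.99 ± 0.18 (SE, limma with repeat as a block), a 3.98-fold higher level, and it was 2.43, 2.09, 2.27 and 1.18 in repeats 1 to 4. It was the 40th largest increase of the 3666 genes. Without repeat 4 the log2 change was 2.26 ± 0.08 (SE).

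For VCAN the values, again in order of repeat, were 2394, 2587, 3451 and 1572 for PHLac-low cells and 1039, 941, 1806 and 361 for PHLac-high cells. It was lower in PHLac-high in all 4 repeats, as were 39.8% of the listed genes. The groups overlapped, because the PHLac-high library of repeat 3 lay above the PHLac-low library of repeat 4. Repeat 3 had the highest and repeat 4 the lowest VCAN value of both fractions. Means were 2501 ± 771 and 1037 ± 594 (SD, n = 4). The log2 change of VCAN was -1.43 ± 0.16 (SE), a 2.69-fold lower level, and it ranged from -0.93 in repeat 3 to -2.12 in repeat 4. It was the 67th largest decrease in the list. Without repeat 4 its log2 change was -1.20 ± 0.10 (SE).

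AGRN was the most abundant of the 4 genes, with 20417, 22354, 25649.5 and 15922 normalised counts for PHLac-low cells, against 16304, 16258, 17081 and 10008 for PHLac-high cells. The PHLac-low library of repeat 4 lay below all PHLac-high libraries except that of repeat 4, so the groups overlapped. AGRN means were 21085 ± 4064 and 14912 ± 3291 (SD, n = 4). Its log2 change was -0.51 ± 0.06 (SE), a 1.42-fold lower level, and it was lower in 4 of 4 repeats, by -0.32, -0.46, -0.59 and -0.67 on the log2 scale. Without repeat 4 it was -0.46 ± 0.06 (SE).

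HSPG2 values were 6606, 7819.6, 6765 and 4905 for PHLac-low cells and 4509, 5149, 4293 and 2448 for PHLac-high cells. A single crossing made the groups overlap: the PHLac-high library of repeat 2 was above the PHLac-low library of repeat 4. Means of HSPG2 were 6524 ± 1206 and 4099.6 ± 1159 (SD, n = 4). The change was -0.70 ± 0.08 on the log2 scale (SE), a 1.63-fold lower level, with -0.55, -0.60, -0.66 and -1.0 in repeats 1 to 4. Without repeat 4 it was -0.60 ± 0.05 (SE). Among repeats 1 to 3 the fractions did not overlap for any of the 4 genes. The share of all listed genes for which this held was not computed, so it is no result about these genes. Over all 4 repeats, 36.7% of listed genes had groups that did not overlap.

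**Figure D1:**
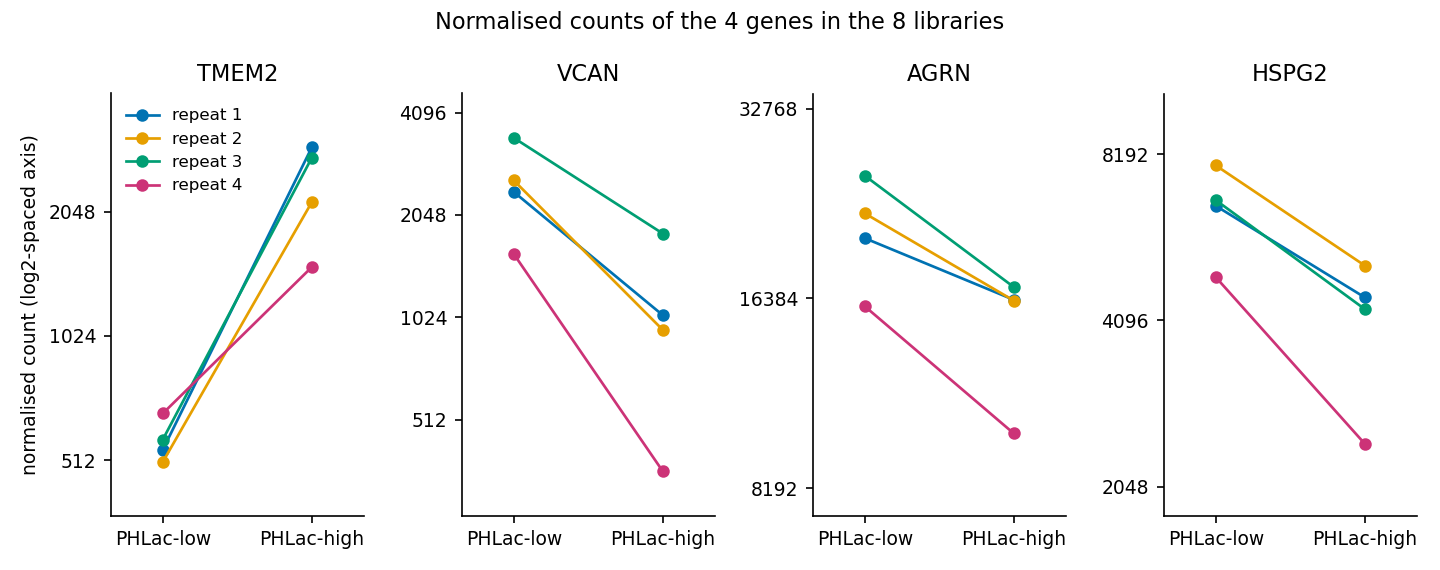
Normalised counts (log2-spaced axes, a separate range for each gene) of TMEM2, VCAN, AGRN and HSPG2, with each line joining the PHLac-low and PHLac-high libraries of 1 repeat. TMEM2 goes up in every repeat and the 3 proteoglycan genes go down, and in both fractions repeat 4 has the lowest value of each proteoglycan gene.

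The authors' deposited table gives log2 fold changes of 2.00 for TMEM2, -1.42 for VCAN, -0.51 for AGRN and -0.70 for HSPG2. The authors' deposited adjusted p-values, by which genes entered the list, are 1.77e-11, 2.42e-07, 1.02e-09 and 6.11e-14 in that order. Reads were inferred from the step between values of a library, which in 4 of the 8 libraries rests on few low values. The fewest reads so inferred were 412 for TMEM2, 273 for VCAN, 7559 for AGRN and 1849 for HSPG2. On these numbers counting error alone is at most 4.93%, 6.05%, 1.15% and 2.33% of a value, less than the spread between libraries of a group.

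A ratio of 2 genes within a library does not depend on its size factor. The log2 ratio of VCAN to TMEM2 counts was 2.14, 2.35, 2.59 and 1.24 for PHLac-low cells by repeat, and -1.50, -1.20, -0.62 and -2.06 for PHLac-high cells. VCAN counts thus exceeded TMEM2 counts in every PHLac-low library, and TMEM2 counts exceeded VCAN counts in every PHLac-high library. The change in this ratio was from -3.64 to -3.20 across repeats, although the changes of the single genes differed more between repeats. For AGRN over TMEM2 the ratio changed by -2.76, -2.55, -2.86 and -1.85, and for HSPG2 over TMEM2 by -2.99, -2.69, -2.92 and -2.18. The proteoglycan genes differed among themselves. The log2 ratio of VCAN to AGRN changed by -0.88, -1.0, -0.35 and -1.45, whereas that of HSPG2 to AGRN changed by -0.23, -0.14, -0.07 and -0.33.

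**Figure D2:**
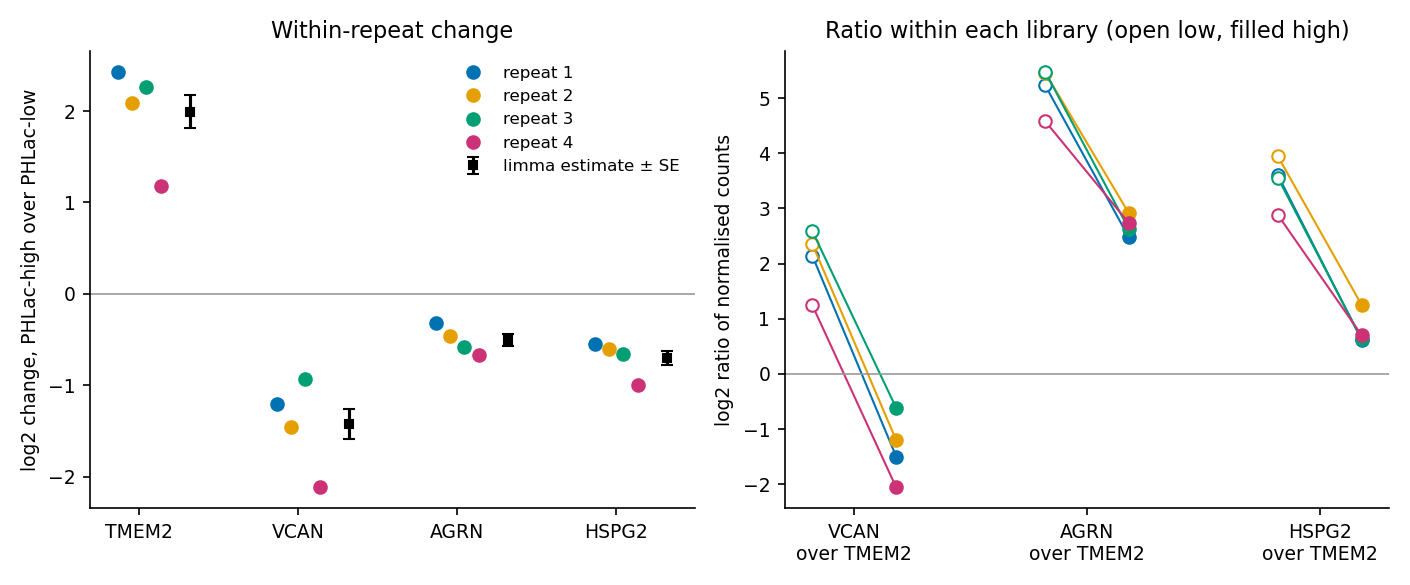
Left, log2 change of PHLac-high over PHLac-low in each repeat (coloured points) and its limma estimate ± SE (black squares). Right, log2 ratio of each proteoglycan gene to TMEM2 within a library, PHLac-low open and PHLac-high filled, joined by repeat; the VCAN ratio is above 0 in all 4 PHLac-low libraries and below 0 in all 4 PHLac-high libraries.

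Levels of different genes were compared per kilobase of the longest coding transcript. AGRN had the highest level, 2852 normalised counts per kilobase in PHLac-low and 2017 in PHLac-high. In PHLac-low it was followed by HSPG2 (455), VCAN (198) and TMEM2 (87.7), and no neighbours in this order overlapped between libraries. In PHLac-high the means were 359 for TMEM2, 286 for HSPG2 and 82.1 for VCAN. There TMEM2 (231 to 450 per kilobase) and HSPG2 (171 to 359) overlapped, with TMEM2 above HSPG2 in 3 of 4 repeats. VCAN is spliced into transcripts of very different length, so its level per kilobase depends on the transcript assumed.

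Base composition moved with the direction of change in the list, and it differed among the 4 genes. GC content of the longest coding transcript was 45.9% for TMEM2, 42.9% for VCAN, 67.5% for AGRN and 64.5% for HSPG2. TMEM2 and VCAN fall in the second-lowest of 5 equal bins of listed genes by GC content, where 75.7% of genes were higher in PHLac-high and 24.3% lower. AGRN and HSPG2 fall in the highest bin, where 72.4% were lower. VCAN was thus lower in PHLac-high among genes that were mostly higher, while AGRN and HSPG2 had the direction of most genes of their GC content. Each library was then corrected for GC content and length, which moved the median log2 change over all listed genes from 0.25 to 0.04. The corrected log2 change was 1.82 ± 0.16 for TMEM2, -1.71 ± 0.13 for VCAN, -0.12 ± 0.06 for AGRN and -0.45 ± 0.07 for HSPG2 (SE). Relative to the median of the listed genes, TMEM2 went from 1.75 to 1.78 and VCAN from -1.67 to -1.75. On the same relative scale AGRN went from -0.76 to -0.15 and HSPG2 from -0.95 to -0.48. The correction was estimated from listed genes alone, and the part of GC content in the AGRN and HSPG2 values was not tested.

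**Figure D3:**
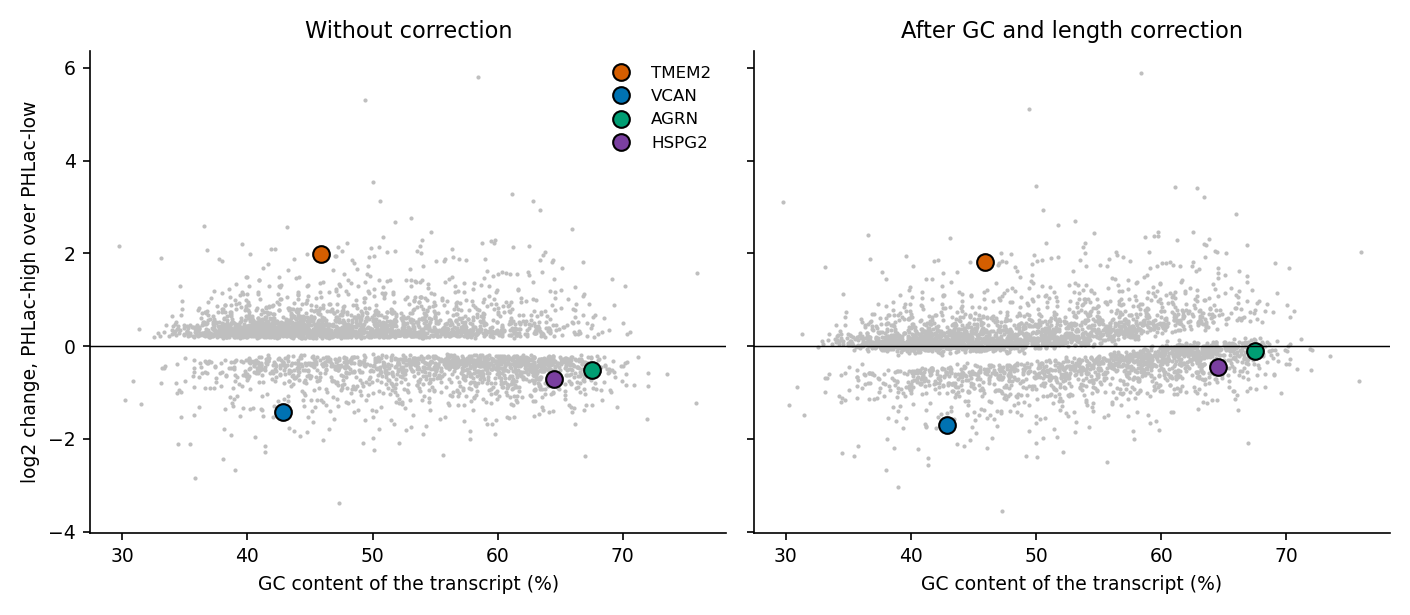
Log2 change of PHLac-high over PHLac-low against transcript GC content (%) for the 3623 listed genes with an annotated transcript (grey) and the 4 genes (coloured), before (left) and after (right) correction for GC content and length. AGRN moves from -0.51 to -0.12, while TMEM2 and VCAN stay above 1.8 and below -1.4; the empty band around 0 on the left arises because the table lists only genes past the authors' threshold.

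The pattern across the 8 libraries was compared with that of every listed gene of mean normalised count at least 100, as the root mean square distance between log2 profiles, each centred on its own mean. AGRN and HSPG2 were 0.18 log2 units apart, while VCAN was 0.61 from AGRN and 0.57 from HSPG2. The closest genes to TMEM2 were LINC00673, a long noncoding RNA (0.17), SGMS2, a sphingomyelin synthase (0.18), and KLF5, a zinc finger transcription factor (0.23). Mean normalised counts of SGMS2 were 904 ± 161 for PHLac-low and 3820.1 ± 781 for PHLac-high (SD, n = 4). The closest to VCAN were GDF15, a stress-induced cytokine of the TGF-beta superfamily (0.25), UBA7, the activating enzyme of ISG15 conjugation (0.28), and LMNTD2 (0.30). AGRN was closest to LYNX1, a modulator of nicotinic acetylcholine receptors (0.07), COL6A1, a collagen VI chain (0.07), and MAPK11, a p38 kinase (0.08). HSPG2 was closest to NOXA1, an activator of NADPH oxidase (0.07), TNFRSF25, a death receptor (0.09), and MLXIPL, a glucose-responsive transcription factor (0.09). The 6 genes nearest to AGRN and HSPG2 had transcript GC contents of 62.8% to 70.0%, like AGRN and HSPG2 themselves. The 3 nearest to VCAN had 58.3% to 69.05%, above the 42.9% of VCAN. All profiles share the same 8 libraries, so a short distance is a description.

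Further genes of hyaluronan and proteoglycan biology came from 5 lists and were tested with limma and the repeat as a block, with Benjamini-Hochberg adjustment over the table. Of all listed genes, 99.9% passed (58.7% higher and 41.2% lower in PHLac-high), so passing is no result about a list. Every listed gene had entered by the authors' adjusted p-value in this same contrast. The adjusted p-values below are therefore no independent test of a gene. The median log2 change of all listed genes was 0.25. List members outside the table were not analysed here.

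Of 28 genes of hyaluronan synthesis, binding and breakdown, 3 were in the table, of which 2 rose and 1 fell (median log2 change 0.63). HAS3, a hyaluronan synthase, gave 186, 154, 264 and 238 normalised counts for PHLac-low cells and 576, 359.6, 532 and 306 for PHLac-high cells. The groups did not overlap, as in 36.7% of all listed genes (23.3% in the upward direction). The log2 change of HAS3 was 1.05 (SE 0.18, adjusted p = 0.00132 by limma). Like TMEM2, HAS3 had its smallest difference in repeat 4 (0.36 on the log2 scale). CD44, the main hyaluronan receptor, rose in mean from 25917 ± 3453 to 39923 ± 1471 (SD, n = 4), a log2 difference of 0.63 (SE 0.07, adjusted p = 0.000151 by limma). PTX3, a pentraxin that takes part in building hyaluronan matrices, fell by 0.63 in log2 units (SE 0.06, adjusted p = 0.00013 by limma), from 12086 ± 929 to 7808 ± 264 (SD, n = 4). The transcripts of a hyaluronan synthase, a hyaluronan receptor and TMEM2 were thus higher in PHLac-high, while that of PTX3 was lower. After GC and length correction HAS3 was at 0.98, CD44 at 0.47 and PTX3 at -0.88.

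Of 38 other proteoglycan core proteins, 7 were in the table, 2 higher and 5 lower in PHLac-high (median -0.39). The largest decrease was that of CSPG4 (NG2), a membrane chondroitin sulphate proteoglycan, at -1.10 ± 0.28 (SE), but from low levels of 35.8 ± 18.7 to 16.4 ± 9.73 normalised counts (SD, n = 4). TGFBR3 (betaglycan), a coreceptor for TGF-beta, fell by 0.68 ± 0.07 (SE), and BCAN (brevican), a relative of versican, by 0.49 ± 0.06. Among syndecans, which carry heparan sulphate at the cell surface, SDC1 changed by -0.39 ± 0.07 and SDC3 by -0.33 ± 0.06, while SDC4 rose by 0.48 ± 0.07 (SE). SRGN (serglycin), the proteoglycan of secretory granules, rose by 0.38 ± 0.06, which was 0.01 ± 0.06 after correction for GC content and length (SE). The same correction gave -0.22 for BCAN, -0.21 for SDC1, -0.18 for SDC3 and 0.30 for SDC4. It gave -0.88 for TGFBR3 and -0.83 for CSPG4.

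Of 56 genes that make glycosaminoglycan precursors and chains, 17 were in the table, with 8 higher and 9 lower (median -0.31). The 14 of them with a mean of at least 100 normalised counts were 8 higher and 6 lower, and their median was 0.27, so the sign of the median turned. The increases included UAP1, which makes the UDP-N-acetylglucosamine used for hyaluronan and heparan sulphate, at 0.61 ± 0.07 (SE). CHST3, a chondroitin sulphotransferase, changed by 0.51 ± 0.10 and DSEL, a dermatan sulphate epimerase relative, by 0.57 ± 0.20. Among the decreases were EXTL1, of the exostosin family (-1.32 ± 0.35), CSGALNACT1, which starts chondroitin chains (-1.17 ± 0.26), and CHST11, a chondroitin sulphotransferase (-0.90 ± 0.15). SULF2, which removes sulphate from heparan sulphate outside the cell, changed by -0.81 ± 0.19 and XYLT2, which attaches the first sugar to a core protein, by -0.51 ± 0.06 (SE, log2 scale). EXTL1, CSGALNACT1 and SULF2 were low, with PHLac-low means of 73.6, 53.7 and 78.0 normalised counts, and EXTL1 was at -0.87 without repeat 4. After GC and length correction UAP1 was at 0.37, XYLT2 at -0.28 and EXTL1 at -1.03. CHST3 was at 0.59, CSGALNACT1 at -1.36, CHST11 at -1.03 and SULF2 at -0.85 after it. DSEL was at 0.30 ± 0.19 (SE) after the correction and no longer passed (adjusted p = 0.202 by limma). It did not pass without repeat 1 (0.33), without repeat 2 (0.57) or without the replicate block either.

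Genes that break down proteoglycans or their chains are given by their own values, with no tally of the list. ADAMTS4, a protease that cuts versican and aggrecan, averaged 347 ± 121 normalised counts for PHLac-low and 196 ± 60.1 for PHLac-high (SD, n = 4). The log2 difference of ADAMTS4 was -0.79 (SE 0.15, adjusted p = 0.00187 by limma, and 0.0793 without the replicate block). HPSE, the heparanase that cuts heparan sulphate chains, changed by -0.51 ± 0.12. The lysosomal enzymes IDUA, SGSH and NAGLU changed by -0.95 ± 0.17, -0.31 ± 0.08 and -0.31 ± 0.07 (SE). After GC and length correction ADAMTS4 was at -0.93, HPSE at -0.71 and IDUA at -0.60, and SGSH (-0.06) and NAGLU (-0.01) no longer passed.

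Of 31 matrix partners and receptors of the proteoglycans, 11 were in the table, 3 higher and 8 lower (median -0.35). The laminin chains LAMB1, LAMA5 and LAMB2, which assemble with perlecan and agrin in basement membranes, fell by 0.77 ± 0.08, 0.65 ± 0.05 and 0.58 ± 0.06 on the log2 scale (SE). After GC and length correction their log2 changes were -0.87, -0.34 and -0.35. LAMA5 was the most abundant of them, at 8565 ± 2035 normalised counts for PHLac-low against 5435 ± 1265 for PHLac-high (SD, n = 4). DAG1, the dystroglycan to which laminins, agrin and perlecan bind, fell by 0.54 ± 0.08 (SE). The microfibril gene FBN1 fell by 0.74 ± 0.13, and FBLN1 by 0.35 ± 0.08 (SE). In the other direction, LAMB3, a chain of laminin-332, rose by 1.03 (SE 0.13, adjusted p = 0.00028 by limma), from 283 ± 83.3 to 562 ± 69.1 normalised counts (SD, n = 4). LAMA4 was at 0.48 ± 0.15 (SE) and passed in the full fit. It did not pass after GC and length correction (0.32 ± 0.15), with upper-quartile scaling (0.26), without repeat 3 (0.30) or without the replicate block.

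**Figure D4:**
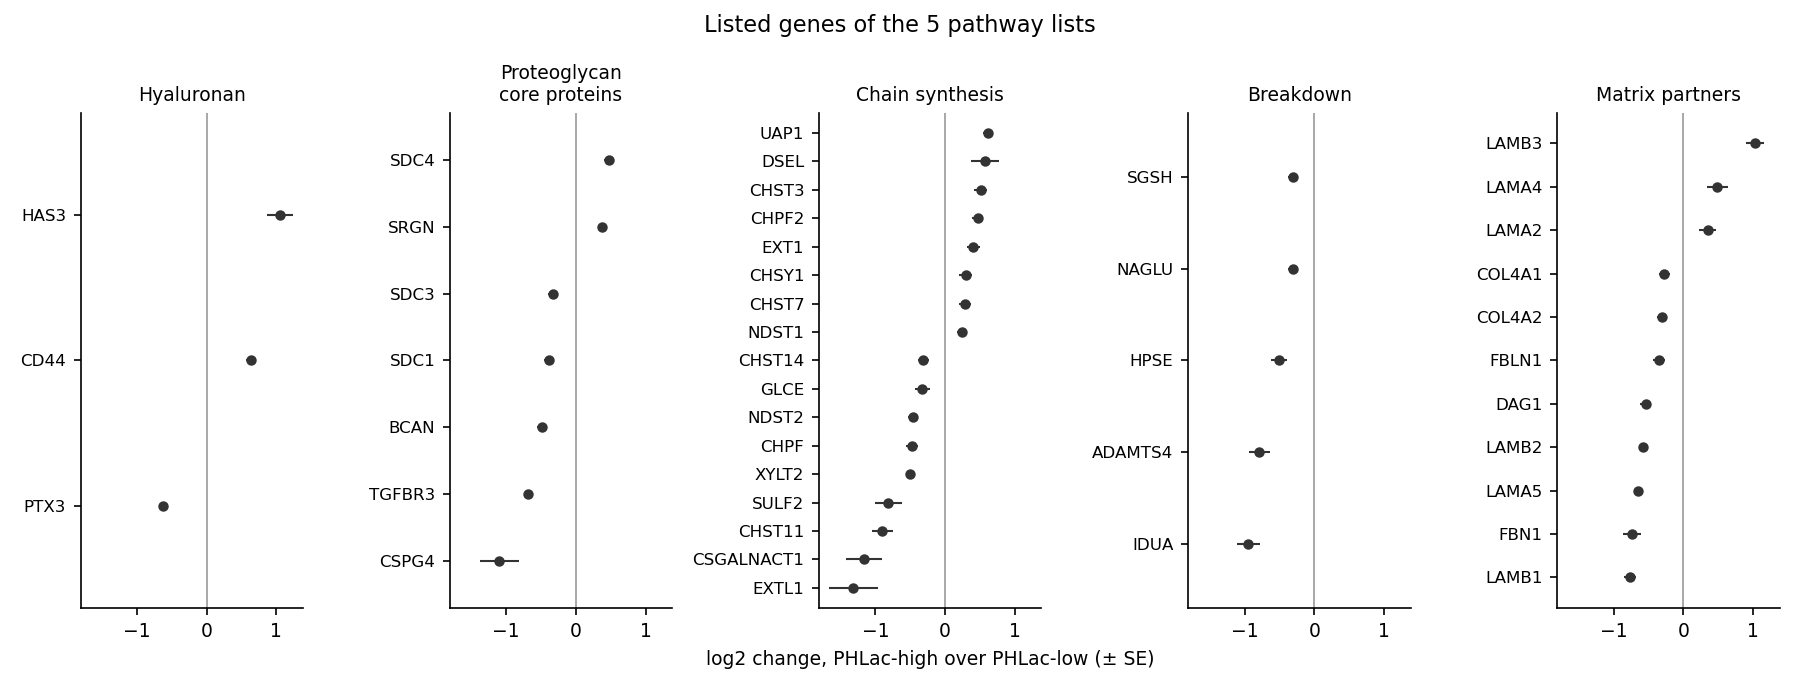
Log2 change of PHLac-high over PHLac-low ± SE (limma, repeat as a block) for genes of the 5 lists, without TMEM2, VCAN, AGRN and HSPG2. HAS3, CD44, UAP1 and LAMB3 lie to the right of 0, and most core proteins and matrix partners lie to the left.

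The split between higher and lower genes in the lists depended on scaling and on GC content. When libraries were scaled to equal upper quartiles, which lowers every log2 change by about the same amount, the median of all listed genes was 0.02 and 64.4% of them passed, 23.2% higher and 41.2% lower. The lists then had 2 higher and 1 lower (hyaluronan), 1 and 5 (core proteins), 3 and 9 (chain synthesis) and 1 and 8 (matrix partners). Of the genes named above, SRGN, DSEL and LAMA4 no longer passed. After GC and length correction the lists had 2 and 1, 1 and 5, 5 and 8, and 1 and 7 in the same order. Of all genes 62.3% then passed, 32.4% higher and 29.9% lower. Without the replicate block 31% of all genes passed (20.3% higher and 10.7% lower), and 3, 4, 8 and 5 genes of these lists. Without repeat 4 the counts in these lists were those of the full fit. Without repeat 1 the chain synthesis genes were 5 higher and 9 lower, and without repeat 3 the matrix partners were 1 higher and 8 lower. Without repeat 2 the chain synthesis genes were 7 higher and 9 lower, and the matrix partners 2 higher and 8 lower.

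Markers of epithelial, of mesenchymal or fibroblast, and of immune or endothelial cells were in the table in part. Of 6 epithelial markers only KRT19 was listed, at 17367 ± 3619 normalised counts for PHLac-low against 20359.6 ± 3930.5 for PHLac-high (SD, n = 4). Of 10 mesenchymal or fibroblast markers, COL1A1 and ACTA2 were listed, and both were lower in PHLac-high in every repeat. The same held for VCAN, AGRN and HSPG2, and for 39.8% of all listed genes. COL1A1 did not pass after GC and length correction (-0.40). The summed normalised counts of COL1A1 and ACTA2 were 246 to 471 in PHLac-low and 148 to 258 in PHLac-high. Of 7 immune or endothelial markers, PTPRC and CD68 were listed, with sums of 1215 to 2074 in PHLac-low and 1227 to 3410.4 in PHLac-high, and they moved in opposite directions. PTPRC (CD45), the common leukocyte antigen, was lower in PHLac-high in 4 of 4 repeats, as were 39.8% of all listed genes. Its means were 262 ± 107 and 103 ± 43.4 normalised counts (SD, n = 4). Its log2 change was -1.36 (SE 0.13, adjusted p = 0.00012 by limma), next to -1.43 for VCAN. CD68, a macrophage marker, rose by 0.55 (SE 0.10, adjusted p = 0.00157 by limma), from 1428 ± 413 to 2189 ± 942 (SD, n = 4), and was at adjusted p = 0.152 without the replicate block. No listed marker was at 0, and the other markers were not analysed here. All libraries came from sorted cells of 1 line, and whether other cells were among them was not tested.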

How the data were processed

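The members and the gene lists were chosen with earlier results of these data known. Per the submitters' processing notes, STAR, SAMtools, Subread and DESeq2 were used with hg38; their versions, settings and filters are not given in the sources used here. The authors deposited 1 table of 3666 genes with a read signal per library that they had scaled by a size factor (normalised counts). All its values were whole multiples of 1 step per library (within 0.01 read), from which the reads behind each value were inferred; 4 libraries hold too few low values for a stricter check of the step. The authors also deposited fold changes, which are log2 by their match to the group means, and adjusted p-values, the highest of which is 0.05 to 2 decimals, so other genes were not analysed here.

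Changes and standard errors are from limma 3.58.1 (R 4.3.3) on log2(normalised count + 1), a scale that understates changes of low genes, with the repeat as a block, a mean-variance trend and Benjamini-Hochberg adjustment over the table at 0.05. These standard errors are moderated, that is drawn toward a trend over all listed genes, so they are not the spread of 1 gene alone. The SD of the within-repeat log2 changes was 0.56 for TMEM2, 0.51 for VCAN, 0.15 for AGRN and 0.20 for HSPG2. The method was also run on simulated counts in which only a minority of genes changed. That setting differs from a list chosen for change, so the run does not check the errors given here. The series description pairs the samples of a repeat, and deviations of libraries from their group mean were shared within a repeat (correlation across genes 0.53 to 0.76, against at most 0.27 between repeats). Transcript GC content and length are from the longest coding transcript of GENCODE 29, found for 3623 genes (98.8%). The correction subtracted lowess curves (span 0.3, statsmodels 0.14.6) of each library's deviation from the gene mean. Genes named were the 4 members, up to 8 per list by size of change, and the 3 nearest profiles of each member. The alternatives dropped the block or 1 repeat at a time, changed the pseudocount to 0.1 or the scaling, corrected for GC content and length, or required a mean count of 100. 1 gene of the breakdown list is not reported here, so no tally of that list is given.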

Additional observations from a re-analysis of the deposited data

Results flagged for a closer look

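In 74 groups of 4 values (the members and the named genes of the lists, by fraction, and the within-repeat changes of the members), the gap of the farthest value to its neighbour was compared with the range of the group. A gap this wide is expected by chance in about 1 of 20 groups, or 3.7 here, and 4 were found. AGRN in PHLac-high had a gap of 0.884 of the range, with 10008 normalised counts in repeat 4 against 16258 to 17081 in the other repeats. BCAN in PHLac-low had a gap of 0.879, with 1278 in repeat 4 against 1704 to 1762. SDC4 in PHLac-low had a gap of 0.877, with 4721 in repeat 4 against 3167 to 3359. FBN1 in PHLac-low had a gap of 0.973, with 241 in repeat 2 against 333 to 335.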

How the results depend on the processing

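The log2 changes of the 4 members kept their direction under all 9 alternatives run for each. Upper-quartile scaling gave -0.73 for AGRN and -0.93 for HSPG2, and correction for GC content and length with the replicate block gave -0.12 and -0.45. The scaling lowers every log2 change by about 0.22, and the cause of the GC shift was not tested. Fits that each left out one repeat gave 1.84 to 2.26 for TMEM2, -1.59 to -1.20 for VCAN, -0.57 to -0.46 for AGRN and -0.75 to -0.60 for HSPG2. Without the replicate block the 4 log2 changes were the same by construction, with standard errors of 0.21, 0.43, 0.20 and 0.23 for TMEM2, VCAN, AGRN and HSPG2. The listed genes past the threshold then numbered 1135 in place of 3663, with 4 core proteins, 8 chain synthesis genes, 1 of the breakdown genes reported and 5 matrix partners. With upper-quartile scaling 2360 listed genes passed, and with GC and length correction 2257, of which 3 were breakdown genes reported here. Of 60 counts under the alternatives, 52 were within 1.5 times that of the full fit. Count models on recovered reads were not run, since 4 libraries hold too few low values to set the step by the check used.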
